A study of Danio rerio with 1152 samples.

Results

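Keratin-rich cells of the zebrafish blastoderm were taken from a single-cell RNA sequencing series of embryos at 50% epiboly, about 6 hours after fertilization. Of 1152 wells in 3 experimental batches, 1000 wells held 2000 or more detected genes and were kept. A kept cell was counted as keratin-rich where the transcripts KRT4, KRT5, KRT8, KRT18 and CYT1 together made up 25 or more of every 10000 UMIs in the cell. A UMI (unique molecular identifier) is a random tag that marks a single cDNA molecule. The rule took 72 cells of the 1000, with 26 in batch 1, 26 in batch 2 and 20 in batch 3. The references were 280 keratin-poor cells, with a keratin sum under 2 per 10000, and FOXI1-positive cells (33, 37 and 42 in batches 1, 2 and 3), with 2 or more UMIs of FOXI1 and a keratin sum under 12. FOXI1 encodes a forkhead factor of the ventral ectoderm, and 30 cells belonged to both references.

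All cells came from untreated embryos of TL/AB in-crosses, whose dissected blastoderm caps were freed of yolk, dissociated and picked by hand. No group differed from another in genotype, treatment or stage. The number of embryos behind each batch is not given in the sources used here. The batch was the replicate. The p-values rest on how the difference between classes varied over the 3 batches, with a spread estimate that borrows from all genes tested. They do not rest on 3 batches alone, and that variation may be technical.

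The enveloping layer is the flat outer epithelium of the fish blastoderm, the first cell type to leave the pluripotent cell mass. It seals the embryo with tight junctions, is braced by keratin filaments anchored at desmosomes, and spreads over the yolk together with the deep cells during epiboly. Its margin is attached to the yolk syncytial layer, and the layer is later shed as the periderm.

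Kept wells held 5307 to 132749 UMIs. For batches 1, 2 and 3 in turn, the keratin-rich cells had median totals of 50567, 35661.5 and 32738 UMIs. These lay below the medians of the keratin-poor cells (64669, 60150 and 36791) and of the FOXI1-positive cells (67477, 59182 and 41538.5) in each batch. With 3 batches the exact two-sided permutation test over batches gave p = 0.25 for either difference, the smallest p it can give. The median number of detected genes was 3774, 3526 and 3190 in the keratin-rich cells, against 3535, 3273 and 3206.5 in the keratin-poor cells.

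Of the kept cells of batch 1, 7.49% were keratin-rich (95% Wilson interval 5.16 to 10.8). The share was 8.78% in batch 2 (6.06 to 12.6), and batch 3 had 5.6% (3.66 to 8.49). These intervals overlap and cover counting error only. Within batch 1 the share was 13.4% on plate 5 (7.66 to 22.4), 10.3% on plate 6 (5.54 to 18.5), 2.33% on plate 7 (0.64 to 8.09) and 4.35% on plate 8 (1.7 to 10.7).

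**Figure D1:**
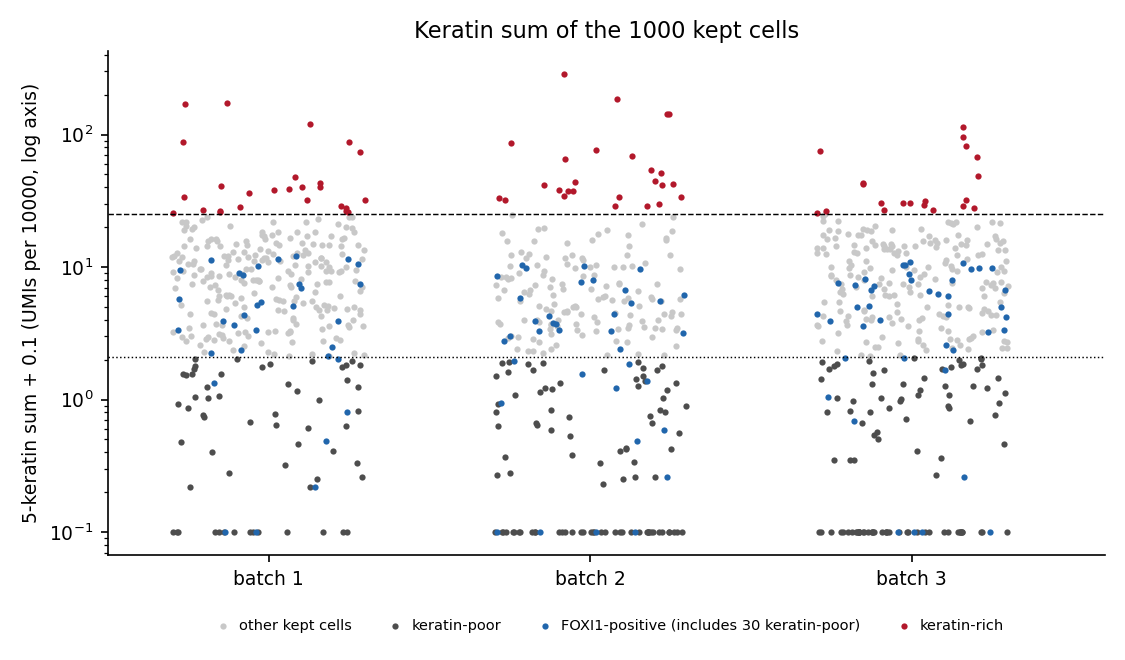
The sum of the 5 keratins in each of the 1000 kept cells is plotted by batch on a log axis, as UMIs per 10000 with 0.1 added, and each point is 1 cell. The dashed line marks the keratin-rich limit of 25 and the dotted line the keratin-poor limit of 2; cells lie on either side of the upper line with no gap between them.

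The 5 keratins chose the cells, so their values are given as a description. Summed over the cells of a batch, keratin-rich cells held 52.3, 55.6 and 45.9 keratin UMIs per 10000, keratin-poor cells 0.758, 0.498 and 0.557, and FOXI1-positive cells 5.21, 3.63 and 4.87. Single keratin-rich cells ranged from 25.3 to 288.2. KRT18, a type I keratin that pairs with KRT8, stood at 30.4, 24.7 and 26.3 UMIs per 10000, and gave 52.7% of the keratin UMIs of the class. KRT8 gave 17.5%, the type II keratin KRT4 16.4%, KRT5 7.62% and the type I keratin CYT1 5.77%. KRT18 was the most counted of the 5 in 66 of the 72 cells, KRT8 in 4 and KRT4 in 2. All 5 were detected in 55 cells, 4 in 11 cells, 3 in 3 cells and 2 in 3 cells.

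The limit of 25 cut through a continuous range. The keratin sums just outside it were 23.8, 23.9, 24.4, 24.8 and 24.9, and those just inside were 25.3, 25.7, 26.1, 26.1 and 26.3. Between 25 and 40 lay 38 of the 72 cells, and 34 cells lay at 40 or more. The tag holds 5 random bases, which gives 1024 different tags, so that high counts are compressed. The highest count of a keratin gene in a kept cell was 622.

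The enveloping layer markers CLDNE, CLDNB and PKP3A did not enter the rule and were used to check the name of the class. The cells were chosen with earlier results of these data known, so the check is not fully independent. CLDNE, a claudin of tight junctions, stood at 4.9, 5.91 and 3.42 UMIs per 10000 in the keratin-rich cells of batches 1, 2 and 3. In keratin-poor cells it stood at 0.292, 0.262 and 0.127, and in FOXI1-positive cells at 0.341, 0.49 and 0.493. Every batch of the keratin-rich class lay above every batch of the references. CLDNE was 21.3-fold higher than in keratin-poor cells (log2 difference 4.41, SE 0.22, adjusted p = 2.34e-10) and 10.4-fold higher than in FOXI1-positive cells (adjusted p = 1.8e-07). These p-values are from edgeR's quasi-likelihood test on counts summed per class and batch, with Benjamini-Hochberg adjustment over all genes tested, as are all adjusted p-values here.

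CLDNB, another claudin, stood at 2.47, 5.96 and 1.37 in keratin-rich cells, against 0.111, 0.065 and 0.0432 in keratin-poor cells and 0.372, 0.203 and 0.278 in FOXI1-positive cells. It was 40.5-fold and 9.61-fold higher (adjusted p = 3.52e-09 and 2.08e-05), with no overlap between classes. PKP3A, a plakophilin that links keratin filaments to the desmosome, stood at 0.545, 0.585 and 0.373, against 0.0198, 0.0359 and 0.012 and against 0.0219, 0.0236 and 0. It was 22.7-fold higher than in keratin-poor cells (adjusted p = 0.000193) and 33-fold higher than in FOXI1-positive cells (adjusted p = 0.000792). PKP3A did not pass against keratin-poor cells when each cell was thinned to 5000 UMIs (adjusted p = 0.0723).

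At least 1 UMI of CLDNE was found in 83.3% of the keratin-rich cells, in 18.2% of the keratin-poor cells and in 38.4% of the FOXI1-positive cells. After thinning every cell to 5000 UMIs the shares were 61.1%, 9.29% and 10.7%. All of CLDNE, CLDNB and PKP3A were detected in 24 of the 72 keratin-rich cells, in none of the 280 keratin-poor cells and in 2 FOXI1-positive cells. Exactly 2 of them were detected in 28 keratin-rich cells, 1 in 13 and none in 7. The 7 cells with none came from batches 2 and 3, had keratin sums from 26.9 to 76.9 and held 5307 to 69005 UMIs. As a group the class carried the markers that its name calls for, and single cells were not all alike.

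Against keratin-poor cells 8306 genes were tested, of which 1.91% were higher and 0.144% (12 genes) lower in keratin-rich cells. Of the higher genes 89 differed by 10-fold or more and 70 by less, and the median of their folds was 14.9. The median log2 difference over all genes was -0.06. The batches of the classes overlapped for 8 of the genes called and not for the others, where 15.8% of all genes tested showed no overlap. Against FOXI1-positive cells 8571 genes were tested, with 110 higher (1.28%) and 17 lower (0.198%). There 39 of the higher genes differed by 10-fold or more, their median fold was 7.76, and the median log2 difference over all genes was -0.05. The batches overlapped for 3 of the genes called there, beside 14.9% of all genes with no overlap. Both comparisons use the same keratin-rich cells, so they are not independent of each other, and folds are given side by side. Leaving out 1 batch at a time moved the share called higher between 1.35% and 2.41% in the first comparison. In the second it moved between 1.19% and 1.81%. Without batches 1, 2 and 3 in turn, 68.6%, 67.3% and 90.6% of the first comparison's higher genes kept their call. In the second comparison 80%, 81.8% and 95.5% did. The lower genes moved more, from 12 to between 6 and 23 and from 17 to between 24 and 35. They reached 63 and 47 with no filter on detection. Without batches 1, 2 and 3 in turn, 25%, 75% and 50% of the lower genes kept their call in the first comparison. In the second 52.9%, 70.6% and 76.5% did. Up to 18 alternative settings were run for each gene, and the number that changed its call is given below where calls were weak.

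**Figure D2:**
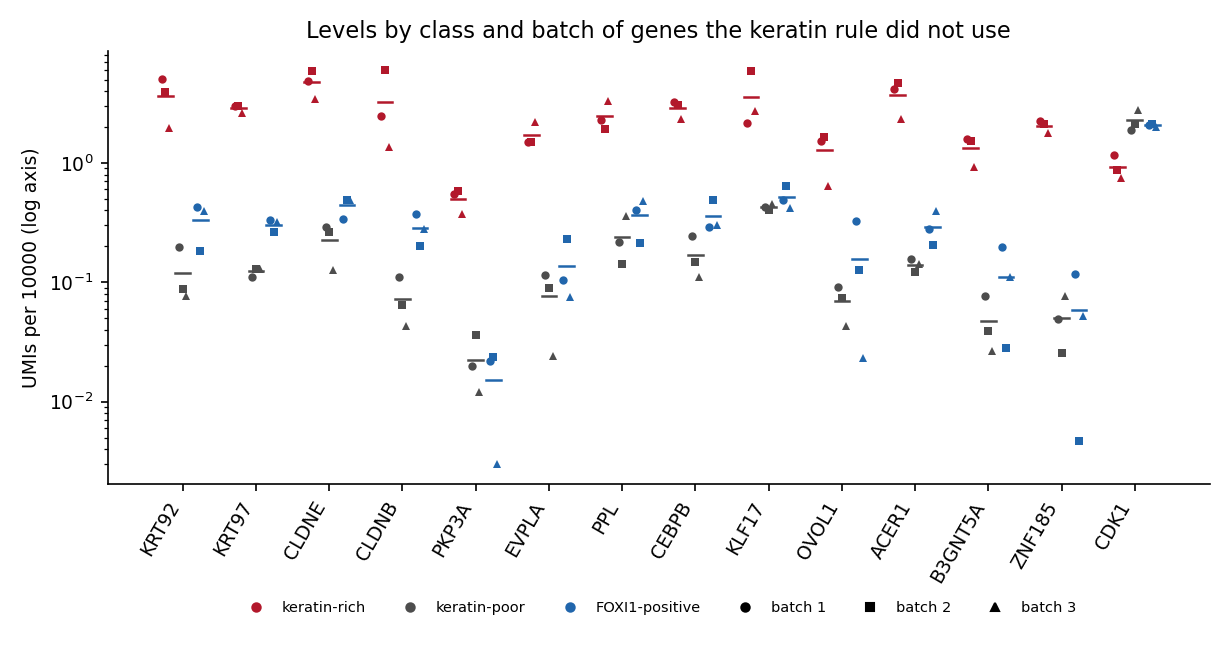
Levels of 14 genes that the rule did not use are plotted in UMIs per 10000 on a log axis, with 1 symbol a batch, a bar for the mean of 3 batches and a colour for each class. A level of 0 (PKP3A, FOXI1-positive, batch 3) is drawn at the foot of the axis; keratin-rich points lie above both references for every gene shown except CDK1, where they lie below.

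Further keratin genes rose with those of the rule. Several stand under clone names in the deposited table and were identified through RefSeq synonyms. KRT92 stood at 5.1, 3.96 and 1.96 UMIs per 10000 in keratin-rich cells, at 0.198, 0.0873 and 0.0768 in keratin-poor cells and at 0.428, 0.184 and 0.394 in FOXI1-positive cells. It was 31-fold and 10.6-fold higher (adjusted p = 2.34e-10 and 2.16e-06), with no overlap. KRT96 was 23.4-fold and 7.0-fold higher (adjusted p = 9.21e-10 and 8.81e-07), and KRT97 23.1-fold and 9.24-fold higher (adjusted p = 9.21e-10 and 5.71e-07). KRT99, chosen after its values were seen, was 8.75-fold and 11.8-fold higher (adjusted p = 1.11e-05 and 9.71e-06). KRT17 was 42.6-fold higher than in keratin-poor cells (adjusted p = 0.00177), but 0.0673 without batch 2. Against FOXI1-positive cells KRT17 stood at a log2 difference of 2.98 (SE 0.87) and did not pass (adjusted p = 0.14), though it did without batch 3 (adjusted p = 0.000828) and with DESeq2 (0.0143).

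Of 13 keratin genes in the table beyond the 5 of the rule, 5 passed the filter on detection against keratin-poor cells and all 5 were called higher. Of the 6 that passed it against FOXI1-positive cells, 4 were called higher. The filter takes the mean of the shares of cells with a UMI in the 2 classes, so a gene can pass it through the keratin-rich class alone. In RefSeq order CYT1 lies next to KRT17 and next to the keratin gene CYT1L, and CYT1L lies next to KRT92. KRT96 lies next to KRT97, KRT5 next to KRT8, and KRT8 next to KRT18. No protein-coding gene lies between the neighbours of any of these pairs. Keratin genes are close copies of each other, and the sources used here do not say how reads that match several copies were counted, so the split between neighbours is uncertain.

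Tight junction genes rose in part. Of 19 tested members of a 33-gene list, 6 were higher and none lower than in keratin-poor cells, with a median log2 difference of 1.03. Against FOXI1-positive cells 3 of 19 were higher, with the same median of 1.03. Both counts hold the markers CLDNE and CLDNB, which had served to check the name, so for these markers they are no further support. Beyond them F11R was the member called against FOXI1-positive cells. Beside these counts and the list counts below, 1.91% of all genes tested were higher than in keratin-poor cells and 1.28% than in FOXI1-positive cells. The shares of all genes lower were 0.144% and 0.198%. F11R, the junctional adhesion molecule A gene, stood at 0.829, 2.94 and 1.2 UMIs per 10000 in keratin-rich cells and at 0.423, 0.575 and 0.192 in keratin-poor cells. It was 3.94-fold and 3.34-fold higher (adjusted p = 0.0011 and 0.0149). TJP3, which encodes the scaffold ZO-3, was 4.75-fold higher than in keratin-poor cells (adjusted p = 0.00128) and did not pass against FOXI1-positive cells (adjusted p = 0.0548).

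Among the claudins CLDNF was 19.1-fold and CLDN7B 2.04-fold higher than in keratin-poor cells (adjusted p = 0.0185 and 0.0205). Neither passed against FOXI1-positive cells (adjusted p = 0.154 and 0.353), where CLDNF did with DESeq2 (0.029). CLDN30, also under a clone name and chosen after its values were seen, stood at 0.411, 0.869 and 0.389 against 0.0173, 0.00342 and 0. It was 88.1-fold and 30.6-fold higher (adjusted p = 6.34e-05 and 0.00106). The second call was lost when cells were thinned to 5000 UMIs (0.0675). CLDN30 was detected in 30.6% of keratin-rich and 0.714% of keratin-poor cells, and passed the filter on detection mainly through the keratin-rich class. CLDNC had 48 UMIs in 12 keratin-rich cells and none in the FOXI1-positive cells. Set against 3 UMIs over the whole reference, the limit that a count of 0 allows, it was at least 31.55-fold higher (adjusted p = 0.049). There CLDNC passed the filter on detection through the keratin-rich class alone. CLDN8.2, under a clone name and chosen later too, was 6.1-fold higher than in keratin-poor cells (adjusted p = 0.047). That call was lost in 9 of 18 alternatives, and CLDN8.2 did not pass against FOXI1-positive cells (0.108). CLDND stood at 3.79 ± 1.13 in keratin-rich cells, 4.12 ± 0.588 in keratin-poor cells and 3.48 ± 0.707 in FOXI1-positive cells (SD, n = 3 batches). CLDND, CLDNA, CLDNG, CLDNJ, CLDN10B, CLDN11B, CLDN12, CLDN15B, CLDND1A and CLDND1B were called in neither comparison. Without batch 2 neither F11R (adjusted p = 0.0559 and 0.16), CLDNF (0.388), CLDN7B (0.319) nor CLDNC (0.37 and 0.369) passed, and CLDN7B did not pass without batch 1 either (0.11), nor did CLDNC against keratin-poor cells (0.147).

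Desmosome and envelope genes moved more fully. Their list holds PKP3A, a marker that had served to check the name and that was called in both comparisons. Of 8 tested members of this list, 5 were higher than in keratin-poor cells and the same 5 were higher than in FOXI1-positive cells, none was lower, and the medians were 3.42 and 2.93 on the log2 scale. EVPLA, the envoplakin gene, stood at 1.49, 1.49 and 2.21 UMIs per 10000, against 0.116, 0.089 and 0.024 in keratin-poor cells and 0.105, 0.231 and 0.0754 in FOXI1-positive cells. It was 23.6-fold and 12.8-fold higher (adjusted p = 1.13e-06 and 1.74e-05), and the classes did not overlap. PPL, which encodes its partner periplakin, was 10.8-fold and 6.81-fold higher (adjusted p = 3.2e-08 and 3.48e-06). PERP, a membrane protein of desmosomes in the mouse, was 9.51-fold and 8.48-fold higher (adjusted p = 3.73e-06 and 5.35e-05).

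JUPA, the plakoglobin gene that serves both desmosomes and adherens junctions, differed by less, with log2 differences of 1.11 and 1.09 (adjusted p = 0.000766 and 0.00227). The second call was lost when cells were thinned (0.0529) and in 2 other alternatives. The desmosomal genes PKP2 and DSC2L stood at log2 differences of 3.81 and 3.41 from keratin-poor cells and did not pass (adjusted p = 0.066 and 0.0955). The summed level of the 9 list members found was 10.72, 10.98 and 10.5 UMIs per 10000 in keratin-rich cells, 2.91, 2.31 and 2.12 in keratin-poor cells and 2.89, 2.61 and 2.28 in FOXI1-positive cells. The 3 batches of keratin-rich cells thus stood close together and apart from the references. Of PKP3A, JUPA, PPL, EVPLA and PERP, 4 or more were detected in 37 of 72 keratin-rich cells, in none of the 280 keratin-poor cells and in 5 FOXI1-positive cells. These genes are the list members called higher in the same cells, so the counts are a description and no further support.

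General epithelial adhesion genes differed by smaller factors. EPCAM, an adhesion molecule of epithelia, stood at 19.6, 23.6 and 19.2 UMIs per 10000, against 12.6, 14.2 and 10.0 in keratin-poor and 10.7, 15.5 and 11.5 in FOXI1-positive cells. It was 1.7-fold and 1.63-fold higher (adjusted p = 0.000969 and 0.00593). CDH1, the E-cadherin gene, stood at 5.12, 7.4 and 4.95 against 3.21, 3.5 and 3.41 in FOXI1-positive cells, 1.66-fold higher (adjusted p = 0.0321). Against keratin-poor cells its log2 difference was 0.58 (adjusted p = 0.0606). These were the called genes among 8 and 9 tested members of the list, whose medians were 0.41 and 0.51. Against FOXI1-positive cells neither EPCAM nor CDH1 passed without batch 1 (adjusted p = 0.102 and 0.109), and CDH1 did not without batch 2 (0.0789). With no block, neither passed there (0.08 and 0.0811).

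Epidermal transcription factors rose in part as well, 6 of 19 tested members against keratin-poor cells and 4 of 19 against FOXI1-positive cells, with medians of 2.72 and 1.58. CEBPB, a basic leucine zipper factor, stood at 3.26, 3.08 and 2.32 UMIs per 10000 in keratin-rich cells, 0.245, 0.149 and 0.11 in keratin-poor cells and 0.289, 0.485 and 0.302 in FOXI1-positive cells. It was 17.7-fold and 7.98-fold higher (adjusted p = 2.46e-09 and 1.97e-06), with no overlap. KLF17, a Krüppel-like zinc finger factor, stood at 2.16, 5.86 and 2.72, and was 7.64-fold and 6.28-fold higher (adjusted p = 5.18e-07 and 2.16e-06). OVOL1, a zinc finger repressor of epidermis, was 17.8-fold and 9.8-fold higher (adjusted p = 5.46e-07 and 0.000184). GATA3 was 19.8-fold and 6.08-fold higher (adjusted p = 2.91e-05 and 0.00421), and against FOXI1-positive cells did not pass without batch 2 (0.0571).

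TFAP2A, an AP-2 factor of surface ectoderm, and GRHL2A, a grainyhead-like factor, passed against keratin-poor cells (log2 differences 2.72 and 5.46, adjusted p = 0.00549 and 0.00726). GRHL2A did not without batch 2 (0.103), and neither passed against FOXI1-positive cells (adjusted p = 0.0764 and 0.243). TFAP2C, a further AP-2 factor, went the other way. It stood at 0.873, 0.807 and 1.94 in keratin-rich cells against 2.88, 1.95 and 2.56 in FOXI1-positive cells, and fell by 1.16 on the log2 scale (SE 0.26, adjusted p = 0.0247), though not past the threshold without batch 1 (0.267). TP63, the basal epidermal factor, was detected in 11.1% of keratin-rich cells, 2.14% of keratin-poor cells and 12.5% of FOXI1-positive cells and passed in neither comparison (adjusted p = 0.152 and 0.597), though it did against keratin-poor cells with DESeq2 (0.013).

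Membrane lipid enzymes gave 6 higher genes of 23 tested against keratin-poor cells and 6 of 22 against FOXI1-positive cells, with none lower and medians of 0.78 and 0.64. ACER1, the alkaline ceramidase gene, stood at 4.19, 4.69 and 2.35 UMIs per 10000, at 0.158, 0.122 and 0.142 in keratin-poor cells and at 0.28, 0.207 and 0.394 in FOXI1-positive cells. It was 25.8-fold and 12.4-fold higher (adjusted p = 7.63e-10 and 9.97e-07), with no overlap. B3GNT5A, whose product starts the lacto-series of glycosphingolipids, was 29.4-fold and 13.1-fold higher (adjusted p = 9.21e-08 and 9.01e-05). HSD17B14, a short-chain dehydrogenase, was 30.9-fold and 19.2-fold higher (adjusted p = 3.04e-06 and 2.16e-06). FA2H, which hydroxylates the fatty acids of sphingolipids, was 28.7-fold and 28.6-fold higher (adjusted p = 0.00482 and 0.0216).

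The fatty acid elongase ELOVL7B was detected in most cells of every class and was 2.8-fold and 2.88-fold higher (adjusted p = 2.58e-06 and 1.14e-05). ELOVL1A was higher by 1.42 and 1.23 on the log2 scale (adjusted p = 0.00563 and 0.0194). Without batch 2 neither FA2H (adjusted p = 0.209 and 0.391) nor ELOVL1A (0.2 and 0.211) passed, and ELOVL1A did not pass against keratin-poor cells without batch 1 (0.0505).

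Of genes for cortical actin and membrane linkers, 6 of 24 were higher than in keratin-poor cells and 5 of 25 than in FOXI1-positive cells, with none lower and medians of 0.24 and 0.53. ZNF185, an actin-binding LIM protein gene, stood at 2.24, 2.14 and 1.79 UMIs per 10000, at 0.0495, 0.0257 and 0.0768 in keratin-poor cells and at 0.118, 0.00471 and 0.0522 in FOXI1-positive cells. It was 42.8-fold and 39.1-fold higher (adjusted p = 9.15e-09 and 2.16e-06). The actin-binding genes TAGLN2 (transgelin) and CNN2 (calponin) were 34.9-fold and 5.38-fold higher than in keratin-poor cells (adjusted p = 2.15e-08 and 4.12e-06), and 7.56-fold and 4.42-fold higher than in FOXI1-positive cells (adjusted p = 0.000305 and 3.46e-05). TAGLN2 was detected in 36.1% of keratin-rich cells. ACTB1, a beta-actin gene, stood at 9.94, 14.3 and 6.42 against 4.84, 6.44 and 4.39 in keratin-poor cells, 1.88-fold higher (adjusted p = 0.00112), with batches that overlapped. ACTB1 was the called gene of 19 housekeeping genes tested in either comparison, and did not pass against FOXI1-positive cells without batch 1 (0.123).

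ANXA1C, an annexin gene, had 73 UMIs in 12 keratin-rich cells and none in the 280 keratin-poor cells, which with 3 UMIs as the limit makes it at least 109.9-fold higher (adjusted p = 0.000632). There ANXA1C passed the filter on detection through the keratin-rich class alone. It did not pass against FOXI1-positive cells (adjusted p = 0.237). Of the ion and water transport list KCNK1A, a potassium channel gene, was the 1 of 11 that rose, at 47.4-fold and 36.8-fold (adjusted p = 0.000144 and 0.000619). KCNK1A lost its call against FOXI1-positive cells when cells were thinned to 5000 UMIs (adjusted p = 0.0702). Over all genes tested 1.91% and 1.28% were higher, and a single call in so short a list says little about the list. Among proteases and splicing factors ESRP1, the epithelial splicing regulator, was higher by 4.7 and 4.32 on the log2 scale (adjusted p = 7.96e-07 and 4.21e-06). CAPN9, a calpain protease gene, was 32.6-fold and 9.86-fold higher (adjusted p = 1.13e-06 and 8.48e-05). TMPRSS4A, a membrane serine protease gene, was 5.4-fold higher than in keratin-poor cells (adjusted p = 0.0253), but not past the threshold without batch 1 (0.123) or batch 3 (0.071), or when cells were thinned (0.48). CTSH, the cathepsin H gene, was lower than in FOXI1-positive cells by 3.09 on the log2 scale (adjusted p = 0.00762), but not past the threshold without batch 2 (0.115) or when cells were thinned (0.61).

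After ANXA1C, the genes furthest above keratin-poor cells by the naming rule were sparse ones. CH25HL1.1, a cholesterol 25-hydroxylase-like gene, had 81 UMIs in 14 keratin-rich cells and 1 UMI in the reference, a ratio of levels of 365.8 (95% counting interval 63.8 to 14600), with a log2 difference of 7.83 (SE 1.3, adjusted p = 0.000969). The aminoacylase gene ACY3.2 was 80.7-fold and 25.7-fold higher (adjusted p = 0.00132 and 0.00818), and PTGS2A, a cyclooxygenase gene of prostaglandin synthesis, 68.1-fold higher than in keratin-poor cells (adjusted p = 0.00564). MGLL, the monoacylglycerol lipase gene, stood at 0.478, 1.06 and 0.156 UMIs per 10000, against 0.00248, 0.0137 and 0.012 in keratin-poor cells. It was 50.6-fold and 44.9-fold higher (adjusted p = 0.000113 and 0.00136). STX11B.1, a syntaxin gene of membrane fusion, was 48.7-fold and 22.9-fold higher (adjusted p = 0.000776 and 0.00809).

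Also among the 15 highest against keratin-poor cells were the death receptor gene TNFRSF21, ZNF750 (in humans a factor of epidermal differentiation), the hormone gene PTH1B, the sodium-proton exchanger SLC9A2 and the heme-binding gene SOUL2. With them stood GFPT2, of the hexosamine pathway, the Rab11 effector RAB11FIP3 and the relaxin receptor RXFP2B. TNFRSF21, ZNF750, SLC9A2, GFPT2, RAB11FIP3 and RXFP2B had 1 to 3 UMIs in the keratin-poor cells. Their ratios of levels ran from 54.2 for RAB11FIP3 (95% counting interval 13.5 to 473) to 126.5 for TNFRSF21 (20.9 to 5170). These 8 genes were detected in 9.72% to 19.4% of keratin-rich cells, and each lost its call when 1 batch was left out. Such sparse genes could pass the filter on detection mainly through the keratin-rich class. With no filter TNFRSF21, GFPT2, RAB11FIP3 and RXFP2B did not pass (adjusted p = 0.133, 0.053, 0.183 and 0.372). Batch 1 left out ended the calls of TNFRSF21, ZNF750, PTH1B, SLC9A2, SOUL2, RAB11FIP3 and RXFP2B (adjusted p = 0.254, 0.132, 0.174, 0.0552, 0.057, 0.0934 and 0.367). Batch 2 left out ended those of GFPT2 (0.504) and CH25HL1.1 (0.0545), and also of TNFRSF21, ZNF750, SLC9A2, SOUL2, RAB11FIP3 and RXFP2B (0.225, 0.0654, 0.0899, 0.0582, 0.217 and 0.136). RAB11FIP3 and RXFP2B were lost without batch 3 too (0.107 and 0.0784).

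Against FOXI1-positive cells the highest genes further held ASAP2B, an Arf GTPase-activating protein gene, and GDPD3A, a lysophospholipase D gene. Neither had a UMI in the reference, and with 3 UMIs as the limit they were at least 53.25-fold and 34.84-fold higher (adjusted p = 0.01 and 0.0198). Both passed the filter on detection through the keratin-rich class alone. The glucose transporter gene SLC2A12, the kinase gene MAPKAPK3 and the ubiquitin ligase gene NEURL1AB were 20.5-fold, 17.3-fold and 14-fold higher (adjusted p = 0.00321, 0.00535 and 0.000192). The calls of ASAP2B (adjusted p = 0.266) and ACY3.2 (0.0791) were lost without batch 2, and that of GDPD3A without batch 3 (0.0602). Those of ASAP2B, GDPD3A, ACY3.2, STX11B.1 and MAPKAPK3 were lost against FOXI1-positive cells with a keratin sum under 2 (0.126, 0.198, 0.111, 0.184 and 0.0525), and that of SLC2A12 with DESeq2 (0.0848).

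**Figure D3:**
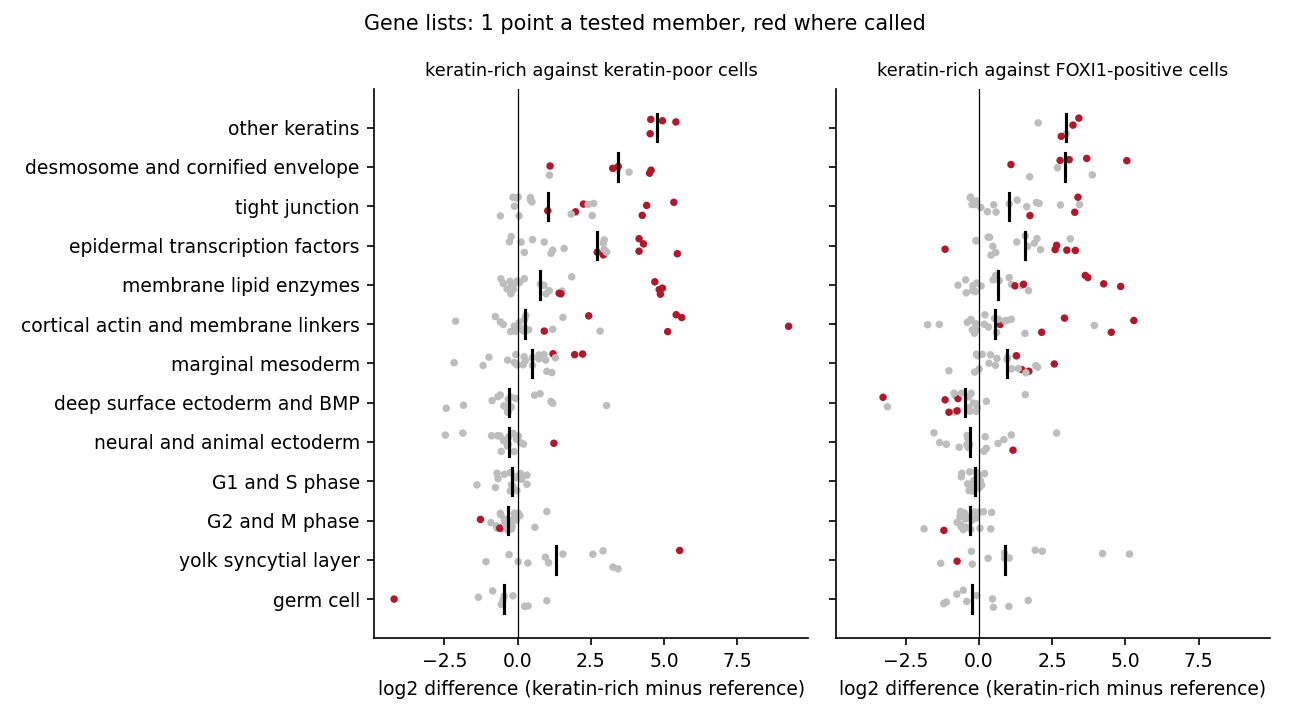
Log2 differences of the tested members of 13 gene lists are plotted for both comparisons, 1 point a gene, red where the adjusted p of edgeR was under 0.05 and grey otherwise; the black bar is the list's median. Keratin and desmosome lists lie furthest to the right, and the 2 cell cycle lists lie close to 0 with CDK1 to the left.

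Fewer genes were called lower. CDK1, the mitotic kinase gene, stood at 1.17, 0.878 and 0.747 UMIs per 10000 in keratin-rich cells, at 1.9, 2.12 and 2.8 in keratin-poor cells and at 2.08, 2.13 and 2.0 in FOXI1-positive cells. The classes did not overlap, and CDK1 fell by 1.27 and by 1.2 on the log2 scale (adjusted p = 0.00702 and 0.0159). It was detected in 55.6% of keratin-rich cells and in 72.9% and 82.1% of the references. CDCA8, the borealin gene of the chromosomal passenger complex, fell by 0.61 against keratin-poor cells (adjusted p = 0.0496), and lost its call without any 1 of the batches (adjusted p from 0.0592 to 0.398). CDK1 against keratin-poor cells did not pass without batch 3 (0.0509). Against FOXI1-positive cells it did not pass when cells were thinned (0.0601), without plate 6 (0.0657) or against those with a keratin sum under 2 (0.0698).

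These were the calls among 27 G2 and M phase genes tested against keratin-poor cells, whose median was -0.33, and CDK1 was the 1 of 28 against FOXI1-positive cells, with a median of -0.3. Over all genes tested 0.144% and 0.198% were lower. The summed level of the 29 members found was 52.4, 57.7 and 55.4 UMIs per 10000 in keratin-rich cells. It was 66.84, 66.78 and 69.97 in keratin-poor cells and 66.7, 67.2 and 65.1 in FOXI1-positive cells, so that the keratin-rich batches lay below both references. None of 20 G1 and S phase genes passed in either comparison, with medians of -0.19 and -0.15 and summed levels of 109.8, 101.3 and 99.85 against 118.7, 104.1 and 113.7 in keratin-poor cells. The highest of them in level were RRM2, a ribonucleotide reductase gene, at 29.6, 23.0 and 28.0 against 27.4, 23.9 and 30.2, and CCND1, the cyclin D1 gene, at 11.2, 12.9 and 12.4 against 10.5, 10.8 and 11.6.

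The other genes lower than in keratin-poor cells served varied functions. HSPE1, the mitochondrial co-chaperonin gene, stood at 0.918, 1.21 and 2.61 UMIs per 10000, against 3.51, 3.09 and 3.97 in keratin-poor and 3.78, 3.03 and 3.23 in FOXI1-positive cells. It fell by 1.3 and by 1.25 on the log2 scale (adjusted p = 0.00166 and 0.0152), with no overlap. ARPC3, an Arp2/3 subunit gene of actin branching, fell by 1.52 (adjusted p = 0.00273), the oogenesis-related gene ORG by 1.17 (0.00818) and the aldolase gene ALDOAA by 0.62 (0.036). DOHH, which modifies the translation factor eIF5A, the ribosome biogenesis gene KRI1 and the ATP synthase inhibitor gene ATPIF1A fell by 1.26, by 0.9 and by 0.74 (adjusted p = 0.0301, 0.0123 and 0.0397). DOHH was also lower than in FOXI1-positive cells (log2 difference -1.28, adjusted p = 0.044). Against keratin-poor cells the calls of HSPE1, ORG, ALDOAA, DOHH, KRI1 and ATPIF1A were lost without batch 1 (adjusted p = 0.0569, 0.128, 0.237, 0.411, 0.0544 and 0.166). So were those of HSPE1 and DOHH against FOXI1-positive cells (0.167 and 0.353). The calls of ALDOAA (0.134) and ATPIF1A (0.389) were lost without batch 3 as well, and those of DOHH (0.0637 and 0.107) and KRI1 (0.107) without batch 2. ALDOAA and ATPIF1A lost their calls in 9 and 11 of 18 alternatives, and ARPC3 did with no block (0.0707) and at a keratin limit of 40 (0.243). Against FOXI1-positive cells the lowest genes further held OIP5, a centromere gene, the co-chaperone gene BAG1 and the replication factor C gene RFC2, which fell by 3.1, by 2 and by 1.08 (adjusted p = 0.0322, 0.0441 and 0.0369). OIP5 was lost without batch 1 (0.263), RFC2 without batch 2 (0.294), and BAG1 without batch 2 (0.164) or batch 3 (0.107). Of 18 alternatives 5 ended the call of OIP5, 9 that of BAG1 and 3 that of RFC2. Against FOXI1-positive cells with a keratin sum under 2, OIP5 and BAG1 fell by 0.31 and by 0.62 (adjusted p = 0.999 and 0.985).

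Against FOXI1-positive cells, which are ventral ectoderm cells by their defining gene, 5 of 20 tested genes of deep surface ectoderm and BMP signalling were lower and none was higher, with a median of -0.48. Over all genes tested there 0.198% were lower. SZL, which encodes the secreted BMP feedback inhibitor sizzled, stood at 0.0523, 0 and 0.404 UMIs per 10000 in keratin-rich cells and at 0.927, 0.707 and 0.737 in FOXI1-positive cells. It was detected in 6 keratin-rich cells and fell by 3.28 on the log2 scale (SE 0.77, adjusted p = 0.0339). VED, a ventral homeobox repressor, stood at 18.4, 13.2 and 21.1 against 29.2, 24.5 and 31.8, and fell by 0.75 (adjusted p = 0.00239). BMP4 and the BMP pseudoreceptor gene BAMBIA fell by 1.03 and by 0.72 (adjusted p = 0.0356 and 0.0352), and TFAP2C was the fifth.

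Without batch 1 the calls of BMP4 (adjusted p = 0.249) and BAMBIA (0.151) were lost, and BMP4 stood at the threshold without batch 3 (0.05). With no replicate block none of the 5 passed (SZL 0.151, VED 0.151, BMP4 0.0759, BAMBIA 0.246 and TFAP2C 0.165). Against FOXI1-positive cells with a keratin sum under 2, SZL, VED, BMP4 and BAMBIA did not pass (0.104, 0.0718, 0.674 and 0.177), and SZL did not with DESeq2 (0.252). The reference was chosen by FOXI1, so a ventral set may differ from it by that choice. Against keratin-poor cells none of 21 members of this list passed (median -0.31): VED stood at 21.5, 15.5 and 24.9 in the reference (adjusted p = 0.537), and ID1, a BMP target, at 31.8, 32.8 and 34.8 against 26.5, 28.2 and 30.8 (adjusted p = 0.537). FOXI1 itself had 2 or more UMIs in 18 of the 72 keratin-rich cells. Its level was 0.366, 0.293 and 0.373, against 0.233, 0.176 and 0.194 in keratin-poor cells (adjusted p = 0.664).

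Some genes of the embryonic margin were higher in keratin-rich cells, 3 of 22 tested against keratin-poor cells and 4 of 22 against FOXI1-positive cells, with medians of 0.5 and 0.96. Over all genes tested 1.91% and 1.28% were higher. WNT11, a Wnt ligand of cell movement, stood at 4.99, 6.16 and 3.66 UMIs per 10000, against 1.63, 2.39 and 2.32 in keratin-poor and 2.04, 1.81 and 2.0 in FOXI1-positive cells. It was 2.32-fold and 2.43-fold higher (adjusted p = 0.000673 and 0.000662), with no overlap. APLNRA, an apelin receptor gene, was 4.66-fold and 5.94-fold higher (adjusted p = 0.000926 and 0.00136), and FGF8A, an FGF ligand gene, 3.86-fold and 3.24-fold higher (adjusted p = 0.00488 and 0.0247). MIXL1, a mesendoderm homeobox gene, was 2.75-fold higher than in FOXI1-positive cells (adjusted p = 0.0125) and did not pass against keratin-poor cells (adjusted p = 0.065), though it did in 7 of 18 alternatives. Without batch 1 FGF8A (0.122 and 0.238) and MIXL1 (0.0868) did not pass, and FGF8A did not when cells were thinned (0.0659 and 0.0823). The mesoderm markers TBX16 and MSGN1 were not called. TBX16 stood at 2.31, 4.11 and 2.04 against 2.09, 2.21 and 2.68 in keratin-poor cells. MSGN1 was lower in each batch, at 0.0746, 0.0621 and 0.109 against 0.188, 0.0736 and 0.274. Of the 22 genes tested there, 8 were higher and 2 lower in all 3 batches. No such share over all genes tested is given here, so these counts are a description.

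TA, the Brachyury gene of the margin, stood at 2.19, 3.82 and 2.15 UMIs per 10000, against 0.56, 1.23 and 2.36 in keratin-poor cells, and did not pass (adjusted p = 0.0508), nor did it against FOXI1-positive cells (adjusted p = 0.0843). The call of TA depended on the setting. It passed in 10 of 18 alternatives against keratin-poor cells and in 7 of 18 against FOXI1-positive cells, among them DESeq2 (0.0129 and 0.0413) and thinning (0.00196 and 0.00259). In batch 3 the keratin-poor cells were higher than the keratin-rich cells. Without batch 3 TA passed in both comparisons (log2 differences 1.8 and 1.29, adjusted p = 1.66e-08 and 0.000709), as did the notochord gene NOTO (1.38 and 1.67, adjusted p = 2.38e-06 and 1.35e-07), which did not pass with all batches (0.494 and 0.41). The organizer list held no call among 8 and 9 tested members, and 4 and 3 without batch 3. Its second gene in level, ADMP, stood at 3.5, 1.66 and 0.404 in keratin-rich cells (adjusted p = 0.97 and 0.415).

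SOX3, a SoxB1 factor of ectoderm, stood at 14.8, 7.7 and 15.5 against 19, 17.5 and 14.3 in keratin-poor cells, and did not pass in either comparison (adjusted p = 0.311 and 0.0904), though it was lower in both without batch 3 (adjusted p = 0.00161 and 0.00227). Against FOXI1-positive cells it passed in 9 of 18 alternatives, and against keratin-poor cells in 4. SOX2 stood at 0.231, 0.0355 and 0.218 against 0.735, 0.25 and 0.598 (adjusted p = 0.066, past the threshold in 5 of 18 alternatives). Of 17 tested genes of neural and animal ectoderm, the adhesion molecule gene ALCAMB was the 1 called, at 2.37-fold and 2.24-fold higher (adjusted p = 0.00011 and 0.000792). Of 7 endoderm genes MIXL1, which the margin list holds too, was the 1 higher than in FOXI1-positive cells. None passed against keratin-poor cells, where the chemokine receptor gene CXCR4A stood at 7.9, 8.22 and 13.8 against 12.4, 11.1 and 9.74 (adjusted p = 0.759). The endoderm determinant SOX32 was detected in 19.4% of keratin-rich cells and SOX17 in 2.78%.

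GADD45BA and GADD45BB, stress sensor genes, were the 2 of 18 p53 and stress genes that rose against keratin-poor cells. Over all genes tested there 1.91% were higher. GADD45BB stood at 1.27, 3.04 and 0.342 UMIs per 10000 against 0.0594, 0.0856 and 0.127, and was 13.9-fold and 5.02-fold higher (adjusted p = 0.000193 and 0.00598). GADD45BA stood at 3.44, 5.58 and 1.77 and was 3.86-fold and 3.24-fold higher (adjusted p = 0.00214 and 0.00348). The sestrin gene SESN3 was lower than in FOXI1-positive cells by 1.49 on the log2 scale (adjusted p = 0.00852), and the median of 21 tested members there was -0.52. The SESN3 call was lost in 5 of 18 alternatives, with an adjusted p of up to 0.816 against FOXI1-positive cells with a keratin sum under 2. GADD45BA did not pass against keratin-poor cells without batch 1 (0.0599), with DESeq2 (0.163) or with a robust prior (0.285), nor did GADD45BB against FOXI1-positive cells without batch 2 (0.134).

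Transcripts of the yolk syncytial layer, the multinucleate layer beneath the blastoderm, appeared in some keratin-rich cells. Of 12 tested members of this list 1 was higher than in keratin-poor cells, the anion exchanger gene SLC26A1, at 0.157, 0.701 and 0 UMIs per 10000 against 0.0099, 0.00342 and 0 (adjusted p = 0.0237). A single cell gave 55 of its 100 UMIs in the class, and the call was lost without batch 2 (adjusted p = 0.625). SLC26A1 was detected in 8 keratin-rich and 3 keratin-poor cells, and passed the filter on detection mainly through the keratin-rich class. CTSLL, a cathepsin L-like gene, stood at 0.896, 3.08 and 0.0467 against 0.104, 0.077 and 0.142 (adjusted p = 0.0639, past the threshold in 9 of 18 alternatives), and HNF4A, a nuclear receptor gene, was detected in 16.7% of keratin-rich and 2.5% of keratin-poor cells (adjusted p = 0.238).

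None of the other markers taken for the layer passed. MXTX2, its homeobox factor, stood at 0.0896, 0.355 and 0 against 0.151, 0.108 and 0.0216 (adjusted p = 0.997), and the apolipoprotein gene APOA1B was detected in 2 keratin-rich cells. HNF4A, CTSLL and SLC26A1 were put together after their values were seen, as list members that were high in the class, so the counts that follow are a description. Of the 72 keratin-rich cells 11 held 10 or more UMIs of these 3 genes, 6 in batch 1, 5 in batch 2 and none in batch 3. So did 4 of the 280 keratin-poor and 3 of the FOXI1-positive cells. The highest was a batch 2 cell with CTSLL at 76.7 UMIs per 10000 beside a keratin sum of 44.8. That cell also held 55 UMIs of SLC26A1, 15 of HNF4A, 23 of TA and 1 of SOX3. The whole list summed to 9.49, 15.2 and 10.9 UMIs per 10000 in keratin-rich cells, 9.04, 7.75 and 11.6 in keratin-poor cells and 13.1, 12 and 14.3 in FOXI1-positive cells, and 2 of its 20 members found (APOA2 and FGB) were at 0 in the keratin-rich class. The apolipoprotein gene APOC1L was lower than in FOXI1-positive cells by 0.75 on the log2 scale (adjusted p = 0.0317; 0.215 without batch 1), and lost its call in 5 of 18 alternatives. With all wells of 10 or more such UMIs left out, a choice made after seeing the data, 1.83% of the genes tested were higher than in keratin-poor cells and 11 genes lower, and 93.1% of the genes higher with those wells were kept. Among the genes named, PTH1B, ALDOAA, ATPIF1A and CDCA8 lost their calls against keratin-poor cells in that fit (adjusted p = 0.274, 0.0603, 0.114 and 0.0763), as did BMP4 against FOXI1-positive cells (0.0838).

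No germ cell gene was called higher in either comparison. DDX4, the vasa gene, stood at 2.31, 2.54 and 2.68 UMIs per 10000 in keratin-rich cells. Its levels were 1.64, 1.41 and 3.21 in keratin-poor cells and 1.87, 1.36 and 2.07 in FOXI1-positive cells. NANOS3 stood at 0.254, 0.0887 and 0.482, against 0.154, 0.139 and 1.29 in keratin-poor and 0.035, 0.0895 and 0.104 in FOXI1-positive cells. DND1, which protects germ plasm RNA, stood at 0.0299, 0 and 0.0311 UMIs per 10000 against 0.146, 0.185 and 1.36 in keratin-poor cells, and fell by 4.22 on the log2 scale (adjusted p = 0.00273; 0.184 without batch 3). It was the 1 of 10 germ cell genes that was lower. Of the 735 DND1 UMIs of the keratin-poor class 633 lay in 8 cells, with up to 511 in a cell, while the highest count in a keratin-rich cell was 4. Against FOXI1-positive cells no germ cell gene passed. The highest of the list in level there were H1M, a maternal linker histone gene, at 10.3 ± 1.29 against 10.7 ± 1.61 (SD, n = 3 batches, edgeR's adjusted p = 0.907), and the chemokine receptor gene CXCR4B at 6.69 ± 0.964 against 8.69 ± 0.197 (adjusted p = 0.329).

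Across the ranges of the keratin sum several epithelial genes stood higher by degrees. CLDNE stood at 0.227 ± 0.0878 UMIs per 10000 in cells with a sum under 2, 0.326 ± 0.0872 from 2 to 5, 0.717 ± 0.126 from 5 to 12 and 1.09 ± 0.483 from 12 to 25. In the keratin-rich range it stood at 2.29 ± 0.833 from 25 to 40 and 7.98 ± 1.43 at 40 or more (SD, n = 3 batches). CEBPB went from 0.168 ± 0.0694 in the lowest range to 1.57 ± 0.318 and 4.67 ± 0.697 in the top ranges, and PKP3A from 0.0226 ± 0.0122 to 0.34 ± 0.342 and 0.791 ± 0.312. CDK1 went the other way, from 2.27 ± 0.47 in the lowest range to 0.989 ± 0.0928 and 0.831 ± 0.603. EPCAM stayed between 12.3 and 14 in the ranges below 25 and reached 17.3 ± 2.87 and 25.9 ± 0.776 above it.

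**Figure D4:**
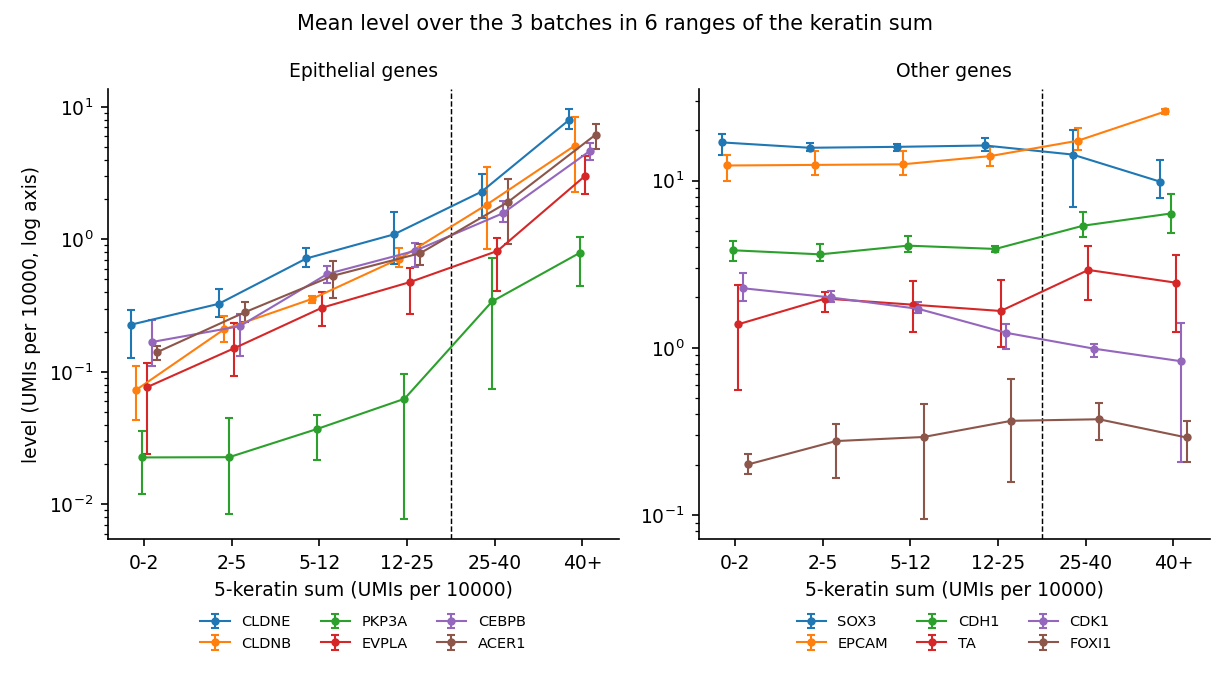
Mean levels over the 3 batches are plotted for 12 genes in 6 ranges of the keratin sum, on log axes in UMIs per 10000, with bars from the lowest to the highest batch and a dashed line at the keratin-rich limit of 25. The means of the epithelial genes of the left panel climb from range to range, with PKP3A level over the lowest 2, while on the right the means of CDK1 decline and those of FOXI1 lie between 0.201 and 0.374.

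Over the 1000 kept cells, the genes most like the keratin sum were ranked by their Spearman correlation with it, averaged over the batches. Among 8295 genes the first 8 were KRT92 (0.51), KRT97 (0.5), KRT96 (0.5), a gene with a clone name alone (0.5), the thymosin beta gene TMSB1 (0.46), DNASE1L4.1 (0.44), CEBPB (0.44) and CLDNE (0.41). The cells share libraries and differ in depth, so these values are a description.

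Keratin-rich cells differed among themselves in margin and ectoderm genes, as keratin-poor cells did. TA and MIXL1 together ranged from 0 to 59.7 UMIs per 10000 with a median of 3.01, and SOX3 from 0 to 33.6 with a median of 11.2. Their Spearman correlation over the 72 cells was -0.47, with -0.46, -0.4 and -0.5 in batches 1, 2 and 3, and -0.61 over the 280 keratin-poor cells. TA had 10 or more UMIs in 31 keratin-rich cells and none in 22, and SOX3 had 50 or more in 33. Both held in 9 cells. These counts come from cells of unequal depth in shared libraries and carry no test.

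**Figure D5:**
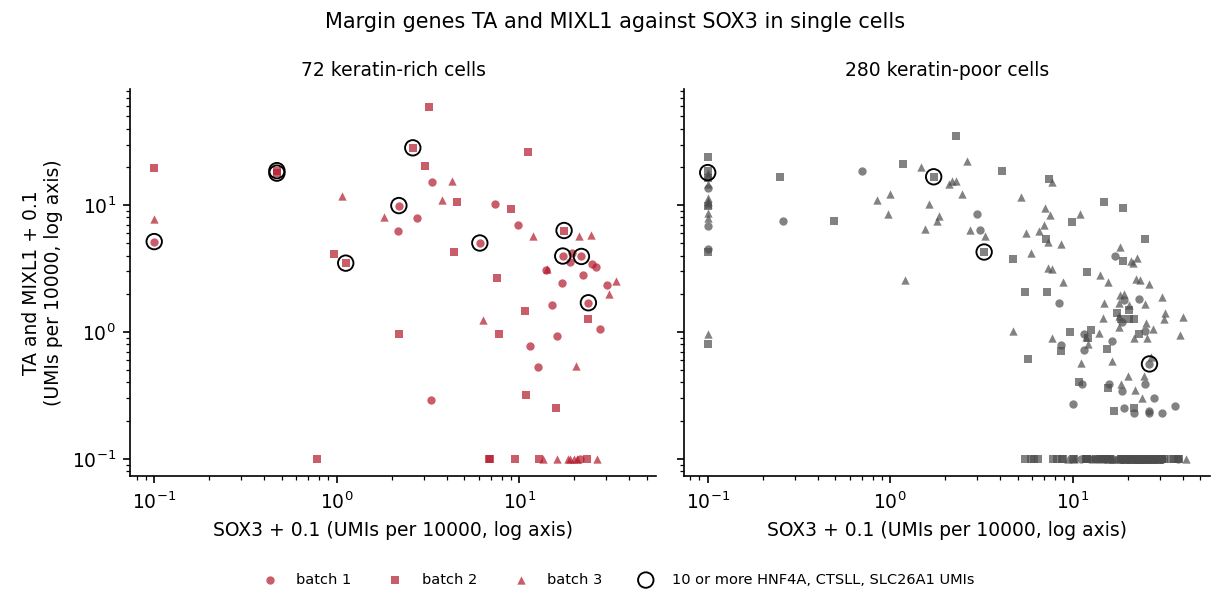
The sum of TA and MIXL1 is plotted against SOX3 for single cells, each as UMIs per 10000 with 0.1 added on log axes, with a symbol for each batch and an open circle for cells with 10 or more UMIs of HNF4A, CTSLL and SLC26A1. Keratin-rich cells spread from high TA and MIXL1 with low SOX3 to high SOX3 with none of the others, as keratin-poor cells do, and 11 of the 72 are circled against 4 of the 280.

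Within the class, cells with a higher keratin sum held more of the markers that the rule did not use. The Spearman correlation of the keratin sum with CLDNE, CLDNB and PKP3A together was 0.52, 0.61 and 0.61 in the 3 batches (26, 26 and 20 cells). That with the total UMIs was -0.2, -0.25 and -0.17. CLDNE and CLDNB correlated with each other at 0.39, 0.59 and 0.37. All markers of a cell share its library and depth, and no p is given.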

How the data were processed

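The authors deposited a table of raw UMI counts for 13902 genes in 1152 wells, 384 in each of 3 batches. Per the labels' protocols, libraries were strand-specific, kept the 5′ end of transcripts and carried a tag of 5 random bases. Per the submitters' processing notes, the tools named are Bowtie and the build Zv9; versions are not given in the sources used here. Gene symbols are printed as the deposited table gives them; 13589 matched a RefSeq symbol or synonym (assembly GRCz12tu, used for names and neighbours only). No sequence is printed.

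Counts of kept wells were summed per class and batch into 6 sums per comparison (72 keratin-rich, 280 keratin-poor and 112 FOXI1-positive cells) and tested with edgeR 4.0.16 (R 4.3.3) by the quasi-likelihood test, with TMM scaling and the batch as a block. The block pairs the sums by the labels, which name the batch, and both sums of a batch come from its libraries. Genes entered where the mean of the 2 classes' shares of cells with a UMI was 5% or more, without the rule genes. A call is a Benjamini-Hochberg adjusted p under 0.05. Levels are UMIs per 10000 of a class's summed counts in a batch, and folds are fitted by edgeR. A gene with no UMI in a reference was set against a floor of 3 UMIs over the reference, which covers counting error only. The test was checked on simulated counts with 200 changed genes. For the keratin-poor and FOXI1-positive comparisons it called 80% and 72% of 8-fold changes and 28% and 20% of 2-fold changes. A gene that did not pass may therefore still differ. False calls numbered 6 and 3. The counts were drawn for the sums from edgeR's own model, with the spread fitted to these data. Uneven counts of single cells were not imitated, so the false calls do not measure the error for sparse genes. Cells of 400 well pairs were compared by chi-square; 1 pair differed by less than sampling noise and lay in none of the 3 classes.

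The cells and gene lists were chosen with earlier results of these data known. Per comparison the text names the 15 highest and 10 lowest called genes that moved the same way in all batches (clone names skipped). It also names up to 4 called members of each list, or its highest ones in level. The markers not given above, GATA6, DAZL, GATA2A, OTX2, GSC, CHD and FRZB, were called in neither comparison. In that order they were detected in 27.8%, 12.5%, 36.1%, 0%, 18.1%, 40.3% and 15.3% of keratin-rich cells. Keratin-poor cells held them in 12.1%, 8.21%, 13.6%, 1.43%, 5.71%, 23.9% and 3.93%. The shares of FOXI1-positive cells were 25.9%, 17.9%, 43.8%, 1.79%, 9.82%, 26.8% and 3.57%. Other genes are said to be chosen later or stand in a called list. Alternatives were DESeq2 1.42.0, RLE scaling, limma 3.58.1 on mean log values, no filter or another, no block, a robust prior, thinning to 5000 UMIs, other limits on keratin and on detected genes, other references, plate 6 left out and each batch left out.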

Additional observations from a re-analysis of the deposited data

How the results depend on the processing

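The counts of genes called kept within 1.5 times of those reported under all alternatives for higher genes, except that limma on mean log values called 240 higher than in keratin-poor cells. A like count need not hold the same genes. After thinning, 66% of the genes higher than in keratin-poor cells and 77.3% of those higher than in FOXI1-positive cells were kept. Counts of lower genes moved more. Against keratin-poor cells (12) they were 27 with DESeq2, 51 with limma, 37 with cells at 40 or more, 63 with no filter, 23 with a robust prior, 7 without wells over 5000 genes, and 6 to 23 with 1 batch left out. Against FOXI1-positive cells (17) they were 27 with DESeq2, 45 with limma, 35 with cells at 40 or more, 47 with no filter, 26 in wells with 3000 or more genes, 8 with FOXI1-positive cells under 2 only, and 24 to 35 with 1 batch left out. With no replicate block, and so without the pairing of the sums by batch, 5 genes were lower than in keratin-poor cells and 6 than in FOXI1-positive cells, and counts of higher genes kept within 1.5 times. The share of keratin-rich cells in batches 1, 2 and 3 was 18.7%, 14.2% and 16.2% at a limit of 15 and 3.17%, 5.07% and 2.24% at 40. On plates 6 and 8 it was 37.9% and 10.9% at 15, and on plates 5 and 6 it was 6.1% and 2.3% at 40. Of the genes not called, ADMP against keratin-poor cells changed sign with limma (log2 difference 0.03) and no block (0.25). It also did with thinning (0.04), 3000 or more genes (0.1) and 1 batch left out (-0.93 to 0.69, above 0 without batch 3). CXCR4A did there without batch 1 (-0.54 to 0.00 over the batches left out). CTSLL against FOXI1-positive cells did without the wells with yolk layer transcripts (-0.5), an alternative chosen after seeing the data. CTSLL counts helped to choose the wells left out, so its change there follows from that choice and is no test. Of 71 and 62 genes named as called, 38 and 28 were called under all alternatives that could test them. The cause of these shifts was not tested. Each batch held 20 to 26 keratin-rich cells.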
